A study of Mus musculus with 6 samples.

Results

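The 32 genes described here encode proteins that build or fill the acrosome, and they were chosen by name and matched to probe sets by gene symbol. The choice was made with earlier results of these data known. All 32 were found among the 18193 genes named on the array, and each was read from its probe set with the highest mean signal over all arrays. By role, 20 encode acrosomal contents and membranes, 8 serve vesicle traffic, and 4 encode nuclear envelope, glycosylation or kinase proteins. They were measured in whole testes of mice at postnatal day 21, in 3 samples labelled Nxf2 KO and 3 labelled WT, with 1 Affymetrix array each. The labels give no strain, targeting construct or number of animals per sample, and a p-value here covers only how far these 6 samples spread, which may be technical. No treatment or other allele is named for either group.

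The acrosome is a secretory vesicle that forms over the spermatid nucleus from vesicles of the Golgi apparatus. It holds hydrolases, protease inhibitors and zona-binding proteins that are released or exposed when the sperm meets the egg. Its genes divide into cargo, made largely by germ cells in meiosis and by spermatids, and traffic proteins that also serve other cells. Nxf2 encodes a germ cell relative of the mRNA export receptor Nxf1. At day 21 the first spermatogenic wave has reached the first round spermatids.

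The targeted gene was checked first. Its only probe set had signals of 116, 106 and 131 in KO replicates 1 to 3 and of 374, 340.4 and 386 across the WT arrays in the same order. Nxf2 thus fell by 1.59 on the log2 scale (SE 0.0999, limma, adjusted p = 0.000488), and the groups did not overlap. The sources at hand do not say whether its probes lie in the deleted part. On the scale used throughout, a log2 fold change is the KO minus the WT mean of log2(signal + 7), which understates changes of dim probe sets. A gene is said to fall or rise where its adjusted p (Benjamini-Hochberg) was below 0.05 among the 27022 probe sets with a mean signal of at least 20.5, all of which were tested.

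Acrosomal contents were lower in KO testes and traffic genes differed little from WT. Of the 20 content genes 18 were tested, 14 fell and none rose, where 5.23% of all probe sets tested fell, 2.26% rose and 7.49% changed either way. By the brightest probe set of each gene 7.37% fell. Of the 14 genes that fell, 6 had a KO mean below the filter and reached it through their WT signals. The smallest of the 14 falls was that of Crisp2, 1.15-fold. The deepest was that of Lyzl6, at a log2 fold change of -2.47, a value set largely by the pseudocount, since its KO mean lay below the filter: it was -3.29 with a pseudocount of 1 and -1.30 with one of 39. In whole testis fewer cells of a type and less RNA per cell cannot be told apart. By limma 0 of the 8 traffic genes passed (adjusted p 0.104 to 0.960), and 2 had an unadjusted p under 0.05. The content genes themselves split in size of change: 12 retained 9.92% to 51.4% of their WT mean signal in KO, and the other 8 retained 75.1% to 89.9%. The 12 were also the dimmer ones, with WT means of 28.5 to 283 against 363 to 1649. Of the 12, 8 had a KO mean below the filter, so their percentages rest on dim signals. Hyal5, the lowest at 9.92%, and Spam1 were not tested.

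Promoter sequences were not used to choose the genes, and 4 are printed to show the range of CG content. They were picked for contrast and do not stand for their roles: among contents with deep falls, the full windows of Spaca1 and Lyzl4 held 16 and 14.67 CG dinucleotides. RefSeq promoter windows of build GRCm38.p6, running from 250 bases before to 50 bases after each gene's start, were at hand for 27 of the 32 genes. The stretches below end 1 base before the start, run 5′ to 3′ on the gene's strand, and carry CG dinucleotides in capitals. Acrv1 (chr9:36693070-36693219, plus strand) and Zp3r (chr1:130629607-130629756, minus strand) encode contents with deep falls, Acrbp (chr6:125049777-125049926, plus strand) a content with a shallow fall, and Gopc (chr10:52382125-52382274, minus strand) a traffic protein.
Acrv1: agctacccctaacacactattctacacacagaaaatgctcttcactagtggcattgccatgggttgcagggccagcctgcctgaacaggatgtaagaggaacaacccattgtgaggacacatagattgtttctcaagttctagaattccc
Zp3r: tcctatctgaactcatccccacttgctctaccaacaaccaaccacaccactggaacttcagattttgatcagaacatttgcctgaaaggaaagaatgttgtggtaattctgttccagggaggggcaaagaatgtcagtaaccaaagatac
Acrbp: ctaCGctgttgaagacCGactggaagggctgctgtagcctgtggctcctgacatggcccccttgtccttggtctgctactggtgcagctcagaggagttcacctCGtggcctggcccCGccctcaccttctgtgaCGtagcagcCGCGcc
Gopc: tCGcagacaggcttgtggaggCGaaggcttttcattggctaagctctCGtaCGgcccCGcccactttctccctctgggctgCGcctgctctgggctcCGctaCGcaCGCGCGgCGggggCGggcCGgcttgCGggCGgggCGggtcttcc
The stretches of Acrv1 and Zp3r hold 0 CG dinucleotides, that of Acrbp 7 and that of Gopc 17.

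**Figure D1:**
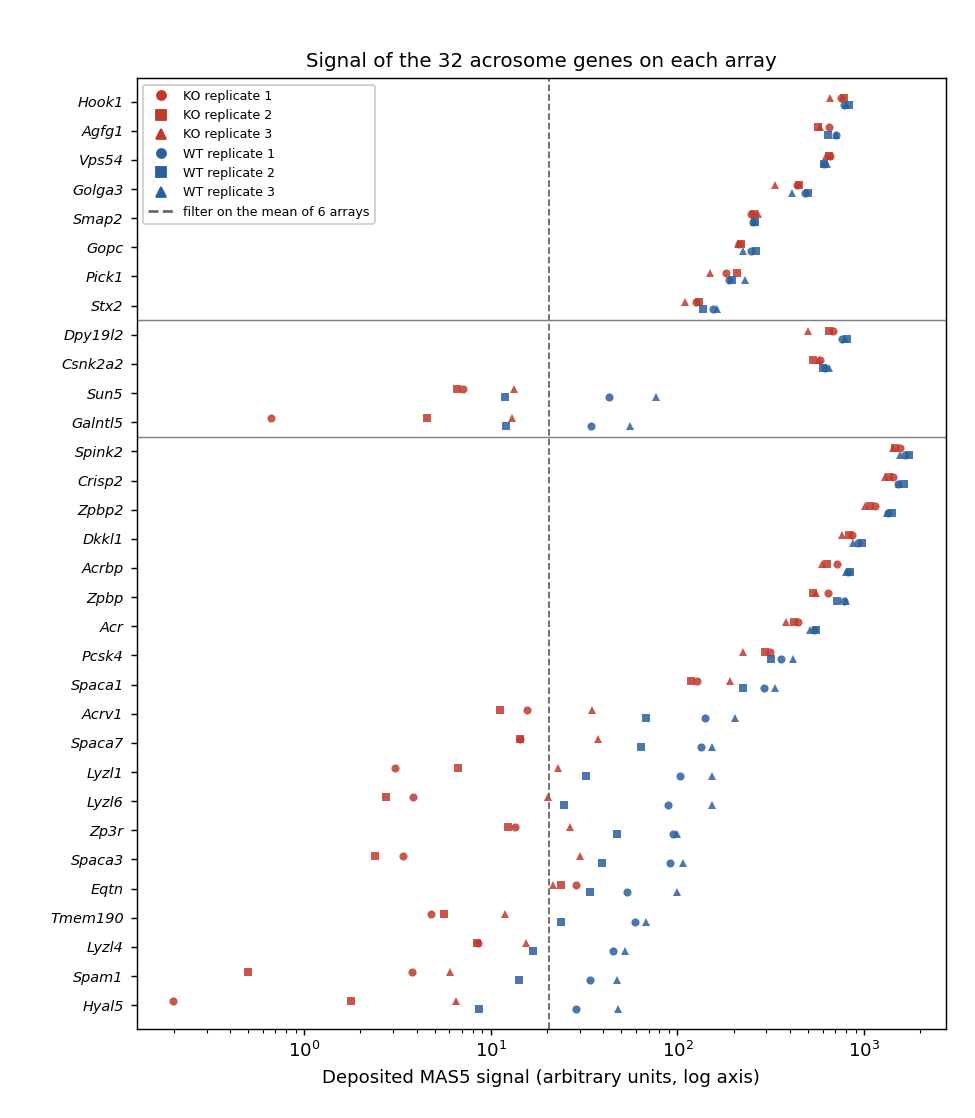
Deposited signal (horizontal log axis, arbitrary units) of each of the 32 genes on the 3 KO arrays (red) and 3 WT arrays (blue), with marker shape giving the replicate and grey lines dividing traffic (top), nuclear envelope, glycosylation and kinase (middle) and content genes (bottom), each sorted by WT mean; the dashed line is the filter on the mean of the 6 arrays, 20.5. All 20 content genes have their 3 KO points to the left of their 3 WT points, as do 14.8% of all probe sets tested, while KO and WT points overlap for 5 of the 8 traffic genes.

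Acrosomal matrix and membrane genes with the deepest falls were dim in KO and uneven among the WT arrays. Acrv1 encodes an acrosomal vesicle protein and gave signals of 15.6, 11.2 and 35.0 in KO replicates 1 to 3 against 140.1, 67.8 and 202 in WT replicates 1 to 3. All KO signals lay below all WT signals, but WT replicate 2 was at 39.6% of the mean of the other two WT arrays. The fall was 2.36 on the log2 scale (SE 0.375, limma, adjusted p = 0.00884).

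Zp3r, which encodes the matrix protein sp56, had signals of 13.5, 12.4 and 26.5 in KO and 94.8, 47.3 and 100.03 in WT. Its log2 fold change of -1.82 (SE 0.282) carried the lowest adjusted p of the 32 genes (limma, 0.00771). Its KO mean of 17.5 lay below the filter, which it reached through its WT signals. Spaca7, another acrosomal protein gene, had signals of 14.3, 14.3 and 37.6 in KO and 133.6, 63.7 and 153 in WT, a log2 fold change of -2.10 (SE 0.341, limma, adjusted p = 0.00949). In both genes KO replicate 3 was the highest KO array and WT replicate 2 the lowest WT array.

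Tmem190, a small membrane protein gene of the inner acrosomal membrane, was at 4.77, 5.59 and 11.9 in KO and at 59.3, 23.9 and 67.6 in WT. Its log2 fold change was -1.92 (SE 0.315, limma, adjusted p = 0.00955), with no overlap between groups. Its KO mean of 7.41 lay below the filter, and over the alternatives its log2 fold change ran from -2.57 to -0.91. Spaca1, whose membrane protein is needed for the acrosome to take shape, was brighter, at 127, 119 and 190.4 in KO and 290.04, 224 and 334 in WT. It fell by 0.94 on the log2 scale (SE 0.183, limma, adjusted p = 0.0181).

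The lysozyme-like and hyaluronidase genes shared this pattern. Lyzl1 had signals of 3.07, 6.67 and 23.0 in KO and 103, 32.5 and 153 in WT, Lyzl6 of 3.83, 2.73 and 20.3 against 88.6, 24.7 and 154, and Lyzl4 of 8.48, 8.48 and 15.5 against 45.0, 16.9 and 52.4. Spaca3, which also encodes a lysozyme-like protein of the acrosome, had 3.40, 2.40 and 30.0 in KO and 90.7, 39.3 and 108 in WT. These 4 genes fell, at log2 fold changes of -2.46 for Lyzl1, -2.47 for Lyzl6, -1.26 for Lyzl4 and -2.39 for Spaca3 (limma, adjusted p = 0.0201, 0.0265, 0.0391 and 0.0213 in that order). Each had a KO mean below the filter and reached it through its WT signals. In each of them the highest KO array was replicate 3, and it came close to WT replicate 2, the lowest of the WT arrays.

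Spam1 and Hyal5, hyaluronidase genes on chromosome 6, did not reach the filter on mean signal. Spam1 was at 3.76, 0.498 and 6.02 in KO and at 34.2, 14.2 and 47.4 in WT, and Hyal5 at 0.199, 1.79 and 6.51 in KO and at 28.6, 8.69 and 48.3 in WT. Both had all KO signals below all WT signals. Fitted without the filter, Spam1 passed (limma, log2 fold change -1.83, adjusted p = 0.0421) and Hyal5 did not (log2 fold change -1.73, adjusted p = 0.0809).

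Eqtn, the equatorin gene of the acrosomal membrane, had signals of 28.7, 23.7 and 21.5 in KO and 53.6, 33.9 and 99.01 in WT. By this probe set it did not pass (limma, log2 fold change -1.02, adjusted p = 0.0571). Its other 2 probe sets passed, at -1.12 (adjusted p = 0.0361) and at -1.01 (adjusted p = 0.0392) on the log2 scale, so the call depended on which probe set stood for the gene.

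Of the 8 contents with bright signals 5 fell, by little, and 3 did not pass. Zpbp2, which encodes a zona pellucida binding protein of the acrosomal matrix, had signals of 1145, 1081 and 1011 in KO and 1339.7, 1419 and 1328 in WT. Its log2 fold change was -0.34 (SE 0.0534, limma, adjusted p = 0.00879), and the groups did not overlap. Its paralogue Zpbp had signals of 641, 532 and 549 in KO and 780.5, 713 and 801 in WT, a log2 fold change of -0.41 (SE 0.0785, limma, adjusted p = 0.0166). The second probe sets gave no call: that of Zpbp had a log2 fold change of -0.42 (limma, adjusted p = 0.0746), and that of Zpbp2 was below the filter. Averaged over its probe sets, Zpbp2 did not pass (log2 fold change -0.19, limma, adjusted p = 0.175).

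Acrbp, which encodes the binding partner of proacrosin, was at 713, 634 and 597 in KO and at 825, 841 and 798 in WT. It fell by 0.34 on the log2 scale (SE 0.0681, limma, adjusted p = 0.0191), and its other probe set fell by 0.54 on the log2 scale (limma, adjusted p = 0.0121). Acr, the gene of the protease acrosin, was at 443, 424 and 381 in KO and at 542, 556 and 514 in WT (limma, log2 fold change -0.36, adjusted p = 0.0192). The protease and its partner thus kept 77.5% and 78.9% of their WT mean signals.

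Crisp2, a cysteine-rich secretory protein gene, had signals of 1430.0, 1362 and 1289 in KO and 1523, 1641 and 1547 in WT and fell by 0.21 on the log2 scale (limma, adjusted p = 0.0337). The 3 content genes with the highest p among those tested by their brightest probe set were also bright ones. Spink2, a protease inhibitor gene, was at 1557, 1464 and 1429 in KO and at 1647, 1740.2 and 1560.3 in WT (limma, log2 fold change -0.15, SE 0.04998, adjusted p = 0.0882).

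Dkkl1, an acrosomal secreted protein gene, was at 865, 826 and 757 in KO and at 932, 976 and 876 in WT (limma, log2 fold change -0.18, SE 0.0630, adjusted p = 0.0965). Pcsk4, a convertase gene, was at 312, 295 and 226 in KO and at 358, 316 and 414 in WT (limma, log2 fold change -0.38, SE 0.131, adjusted p = 0.0973). Neither passed, although no KO signal of these genes reached a WT signal.

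**Figure D2:**
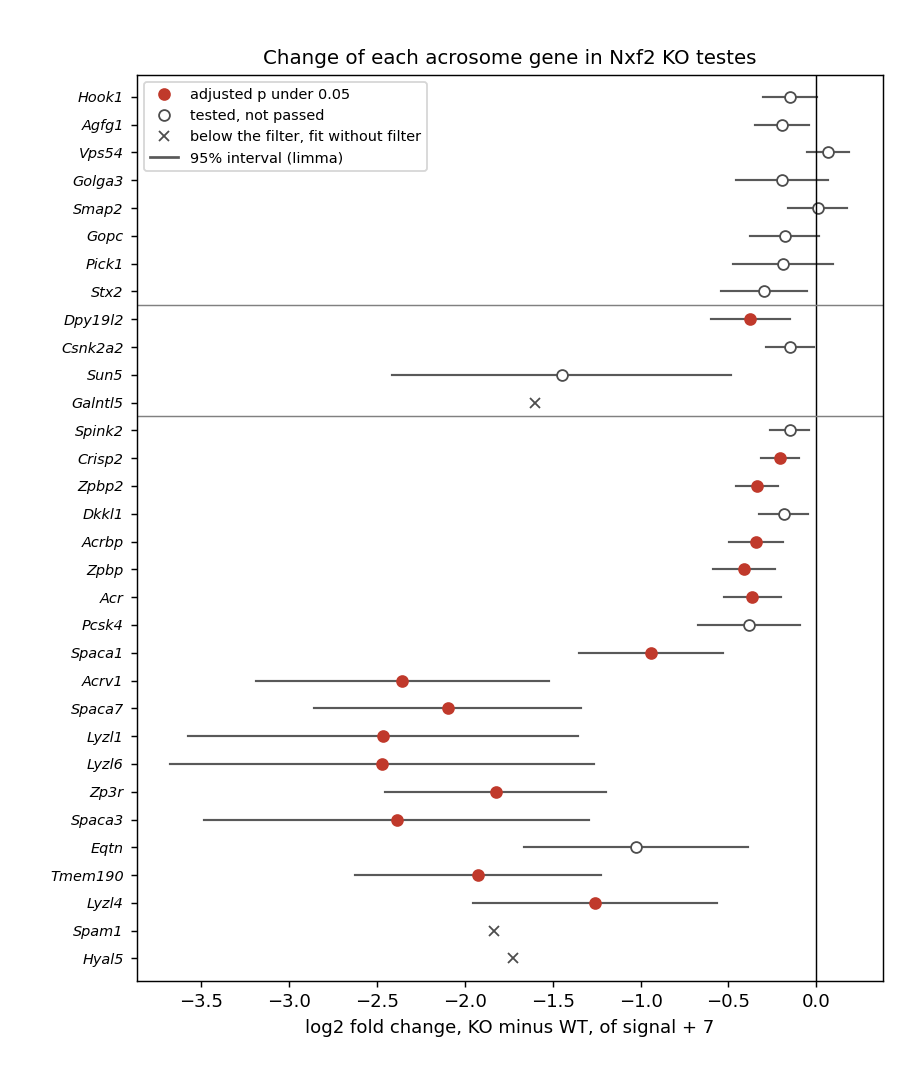
Log2 fold change of signal + 7, KO minus WT (horizontal axis), of the 32 genes in the same order, with 95% intervals from limma; filled points passed at an adjusted p under 0.05, open points did not, and crosses are 3 genes below the filter, fitted without it. Values of -0.94 or lower all lie among content genes, Sun5 and Galntl5, and no traffic gene lies below -0.30.

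The count of content genes that fell was read against the background and the filter. Of 12971 genes by their brightest probe set 7.37% fell. Of the 18 content genes tested 14 fell, and all 20 had their 3 KO signals below their 3 WT signals, against 14.8% of all probe sets tested. The filter bears on this count, since 6 of the 18 reached it with a KO mean below 20.5 and so through their WT signals. These were Zp3r, Tmem190, Spaca3, Lyzl1, Lyzl4 and Lyzl6. Among the 12 whose KO mean also reached the filter 8 fell. The median log2 fold change was -0.98 over the 18 genes tested and -1.14 over all 20 without the filter, against 0.037 over all probe sets tested. Over the 12 genes whose KO mean also reached the filter it was -0.37, a choice that in turn leaves out the genes lowest in KO. Without the filter, which raises the number of tests to 45037, 9 of the 20 fell.

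Single arrays decided many of these calls. With WT replicate 1 left out none of the 29 members tested passed (limma, adjusted p 0.0535 to 0.995), although 20 had an unadjusted p under 0.05. Calls over all 27022 probe sets also dropped in that fit, to 159 from 2024 with all arrays. They numbered 1030 to 1534 with any other array left out. The median of the content genes kept its sign in every fit with 1 array left out (-1.22 to -0.74). Leaving out WT replicate 3 gave 7 falls among content genes and leaving out KO replicate 2 gave 8. With KO replicate 1 removed there were 10, and 12 each with KO replicate 3 or WT replicate 2 removed. Acrv1, Spaca7, Zpbp2, Zp3r and Tmem190 fell in each of these 5 fits. Lyzl4 lost its call in every fit with 1 array left out except that without WT replicate 2, and Crisp2 in every one except that without KO replicate 1.

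The arrays ranked differently in the dim and the bright content genes, as the plot of values on each array shows. For this description, made after the values were seen and not tested, the 20 genes were divided at a WT mean signal of 350. Signals of different probe sets are not comparable as transcript levels, so the division concerns the measurement only. In the 12 dimmer genes, Acrv1, Spaca1, Spaca3, Spaca7, Spam1, Hyal5, Lyzl1, Lyzl4, Lyzl6, Zp3r, Tmem190 and Eqtn, WT replicate 2 was the lowest WT array in all 12, at 20.4% to 71.7% of the mean of the other two. KO replicate 3 was the highest KO array in 11 of them.

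In the 8 brighter genes the order turned. WT replicate 2 was the highest WT array in 6 of them (the exceptions were Zpbp and Pcsk4), at 81.9% to 109% of the mean of the other two over all 8. KO replicate 3 was the lowest KO array in 7 of the 8. Set against each gene's WT mean, the dimmer genes had array medians of -2.15, -2.19 and -1.36 in KO replicates 1 to 3 and 0.27, -0.79 and 0.55 in WT replicates 1 to 3. The brighter genes had -0.20, -0.31 and -0.44 in KO and 0.0033, 0.054 and -0.038 in WT. The array medians of WT spread more widely for the dimmer genes, where the KO arrays still lay lower.

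**Figure D3:**
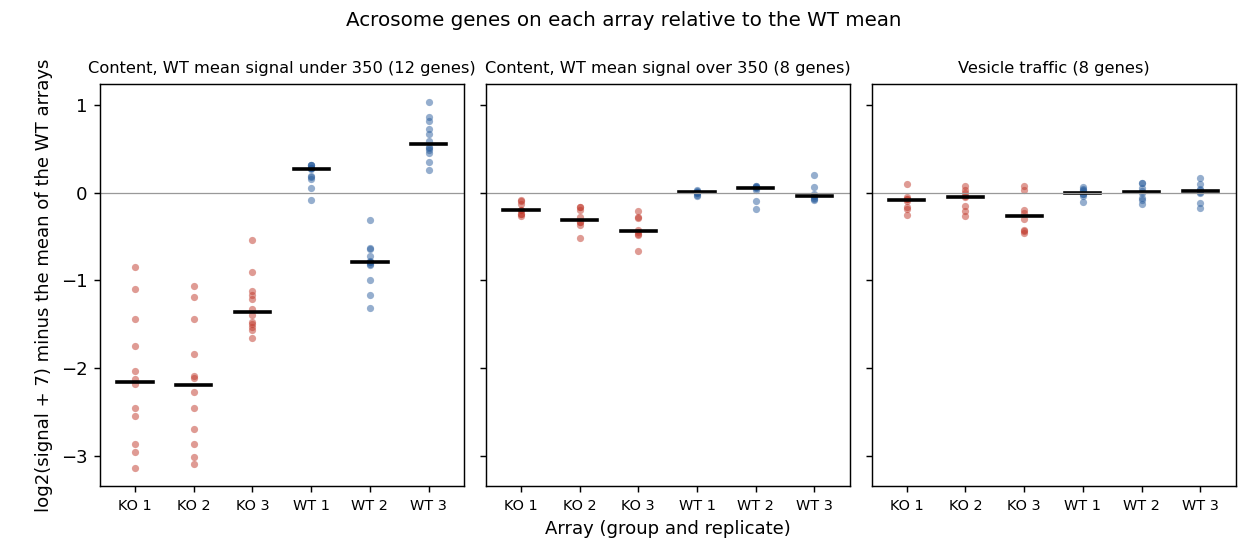
Each point is 1 gene on 1 array, as log2(signal + 7) minus that gene's mean over the 3 WT arrays (vertical axis), for the 12 dimmer content genes, the 8 brighter content genes and the 8 traffic genes; black bars are medians over genes. In the first panel WT replicate 2 (-0.79) stands below the other WT arrays and KO replicate 3 (-1.36) above the other KO arrays, while the traffic medians stay between -0.27 and 0.015.

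Genes of the nuclear envelope, glycosylation and kinase group divided in the same way. Dpy19l2, which encodes the inner nuclear membrane protein that holds the acrosome to the nucleus, had signals of 685, 647 and 501 in KO and 763, 812 and 791 in WT. It fell by 0.38 on the log2 scale (SE 0.100, limma, adjusted p = 0.04998), at the edge of the threshold, and the call was lost under 9 of 16 alternatives, among them the fits without KO replicate 2 (adjusted p = 0.0639) or any WT array (adjusted p 0.0916 to 0.132).

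Sun5, a nuclear envelope gene of the sperm head-tail junction, was at 7.12, 6.58 and 13.3 in KO and at 42.9, 12.0 and 76.8 in WT. KO replicate 3 was above WT replicate 2, and the gene did not pass (limma, log2 fold change -1.45, SE 0.434, adjusted p = 0.0695), except without WT replicate 2 (log2 fold change -2.04, adjusted p = 0.00253) and under 2 other alternatives. Galntl5, a glycosyltransferase-like gene whose product affects acrosomal proteins, was below the filter, at 0.667, 4.56 and 12.9 in KO and at 34.4, 12.0 and 55.4 in WT, with the same overlap. Csnk2a2, a catalytic subunit gene of the kinase CK2 whose loss leaves round-headed sperm, was at 583, 531 and 575 in KO and at 620.5, 603 and 649 in WT (limma, log2 fold change -0.15, adjusted p = 0.148). Its 6 other probe sets did not pass either, at -0.26 to 0.019 on the log2 scale.

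Vesicle traffic genes had small differences. Their median log2 fold change was -0.19, or -0.071 without KO replicate 3, and 6 of the 8 had lower means in KO. The gap between the content and traffic medians depended on which content genes entered. It was -0.96 on the log2 scale over all 20 without the filter, -0.80 over the 18 tested and -0.19 over the 12 whose KO mean also reached the filter. Over the alternatives the gap of the genes tested ranged from -1.09 to -0.17, the latter with a filter at the 60th percentile, which left 10 content genes. The genes with an unadjusted p under 0.05 were Agfg1 and Stx2.

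Agfg1, which is needed for proacrosomal vesicles to fuse, had signals of 647, 564 and 580 in KO and 704, 642 and 705 in WT, with KO replicate 1 above WT replicate 2 (limma, log2 fold change -0.19, adjusted p = 0.104). Stx2, a membrane fusion syntaxin gene, was at 125, 130 and 110.2 in KO and at 155, 137 and 163 in WT. Its groups did not overlap (limma, log2 fold change -0.30, adjusted p = 0.114). Both genes passed with array weights (adjusted p = 0.00688 and 0.0208).

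Gopc, the Golgi PDZ protein gene whose loss prevents acrosome assembly, was at 214, 219.6 and 212 in KO and at 247, 265 and 224 in WT, again without overlap (limma, log2 fold change -0.18, adjusted p = 0.205). Its partner Pick1 was at 182, 208 and 149 in KO and at 189, 196 and 229 in WT, with overlapping groups (log2 fold change -0.19, SE 0.128, limma, adjusted p = 0.349). The 95% interval for Pick1, -0.47 to 0.093, leaves falls as large as those of Acr and Zpbp possible.

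Golga3, a golgin gene, was at 438, 447 and 334 in KO and at 483, 499.6 and 409.6 in WT (limma, log2 fold change -0.20, adjusted p = 0.295). Hook1, an adaptor gene for transport along microtubules, was at 752, 783 and 655 in KO and at 785, 835 and 803 in WT (limma, log2 fold change -0.15, adjusted p = 0.189). In both genes KO replicate 3 was the lowest of all 6 arrays.

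Vps54, a subunit gene of the GARP complex that tethers vesicles at the Golgi and is mutated in the wobbler mouse, was at 661, 651 and 627 in KO and at 609, 612 and 629 in WT. Its log2 fold change was 0.066 (SE 0.0532, limma, adjusted p = 0.434), with a 95% interval of -0.052 to 0.18 that does not reach the fall of any called content gene. Smap2, which regulates the small GTPase Arf at the Golgi, was at 249.05, 257 and 271 in KO and at 254, 260.4 and 258 in WT. The difference of 0.0073 (SE 0.0758, limma, adjusted p = 0.960) changed sign under 4 of 16 alternatives, and its interval ran from -0.16 to 0.18. None of the other tested probe sets of the traffic genes passed either (limma, adjusted p 0.102 to 0.962).

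Other genes of the same processes were counted in the same way. They were listed by role, but with earlier results of these data known, so their counts are no independent support. Of 16 further acrosomal genes 14 were on the array, 11 were tested, 6 fell and none rose, against 7.37% of genes by their brightest probe set that fell. Of the 6, 2 (Actl7a and Cylc1) had a KO mean below the filter. Spesp1, an equatorial segment gene, fell by 0.51 on the log2 scale (limma, adjusted p = 0.0038), Actl9 by 0.47 (limma, adjusted p = 0.00686) and its fellow actin-like gene Actl7a by 1.73 (limma, adjusted p = 0.0102). Cylc1, of the perinuclear theca under the acrosome, fell by 1.56 on the log2 scale, Spaca4, of the acrosomal membrane, by 0.62, and Spata16, a Golgi protein gene, by 0.28.

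Of 27 further Golgi and vesicle genes 26 were on the array and tested, 4 fell and none rose, against the same 7.37%, with a median log2 fold change of -0.01. Hook2, a relative of Hook1, fell by 0.60 on the log2 scale (limma, adjusted p = 0.00678), the Golgi stacking gene Gorasp2 by 0.33 (limma, adjusted p = 0.0165), the endosomal deubiquitinase gene Usp8 by 0.31 (limma, adjusted p = 0.0304) and the autophagy gene Atg7 by 0.39 (limma, adjusted p = 0.046). The partners of Vps54 in the GARP complex did not pass, with log2 fold changes of -0.085 for Vps51, -0.14 for Vps52 and 0.064 for Vps53 (limma, adjusted p 0.470 to 0.712). Of 12 genes of acrosomal exocytosis 11 were on the array and 7 tested, and by limma 0 passed while 4 had an unadjusted p under 0.05. The lowest adjusted p among them was that of the phospholipase gene Pla2g6, 0.056 at a log2 fold change of -0.30, and Dnajc5, a chaperone gene of secretory vesicles, had a log2 fold change of 0.20 (limma, adjusted p = 0.110).

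Promoters of the traffic genes held more CG dinucleotides than the median gene, and those of the content genes as a whole about as many. Over the 300-base windows, the 7 traffic genes with a window held 13.5 to 49 CG dinucleotides, with a median of 22, against a median of 7 over all 27025 genes of the table. The 16 content genes with a window held 0 to 26, with a median of 7.25, close to that of all genes. Divided by WT signal as above, after the values were seen, the 10 dimmer genes had a median of 1.5 and the 6 brighter ones a median of 13, and their ranges overlapped. Among the dimmer genes Spaca1 held 16, Lyzl4 14.67 and Spaca3 7.5, and among the brighter ones Zpbp held 7 and Crisp2 11. Windows of Spam1 and Hyal5 held 0, those of Acrv1, Spaca7 and Zp3r held 1 each, and those of Zpbp2 and Vps54 held 26 and 49. CG-rich promoters are common among genes that many cell types use. These counts are a description of the windows and were not tested against the signals.

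**Figure D4:**
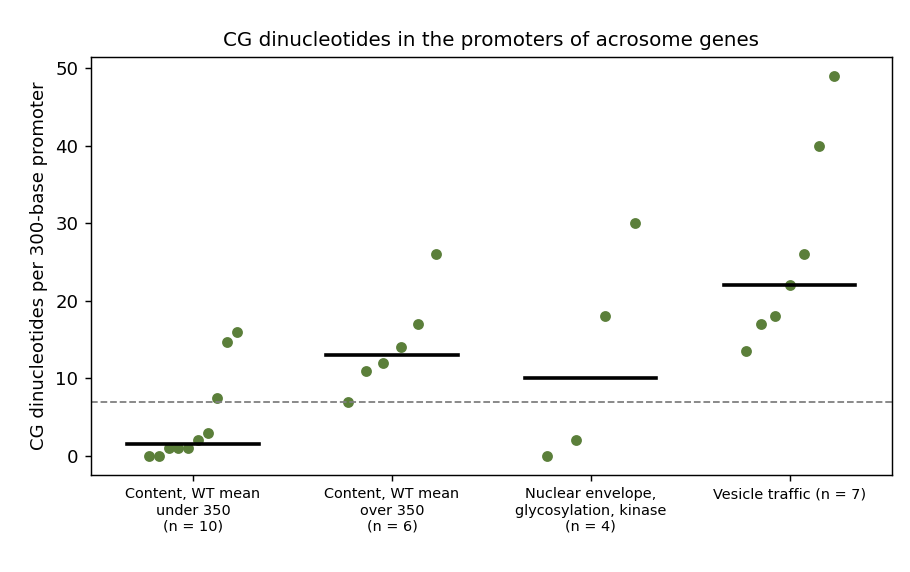
CG dinucleotides per 300-base RefSeq promoter window (vertical axis) for 27 of the 32 genes by role, each point 1 gene (the mean over its windows where there are several), with black bars for medians and a dashed line at 7, the median of all genes in the table. The 10 dimmer content genes have a median of 1.5 but reach 16, the 6 brighter ones run from 7 to 26, and the 7 traffic genes have a median of 22.

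Exact letters were searched on both strands of the same windows. GGGCGG, the letters of a GC box, was in the windows of 7 of 7 traffic genes (100%), 7 of 16 content genes (43.8%) and 38.2% of all genes. TGACG, which also lies within the cyclic AMP response element TGACGTCA, was in 5 of 16 content genes (31.2%), 2 of 7 traffic genes (28.6%) and 23.0% of all genes. TGACGTCA itself was in none of the 27 windows and in 2.03% of all genes. TATAAA was in 3 of the 27, those of Spaca7, Crisp2 and Stx2, and in 15.7% of all genes. A match is a run of letters and was not tied to binding.

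Markers of cell types were measured beside these genes, each by its brightest probe set. Their falls are to be read against the 7.37% of genes that fell by their brightest probe set. For rises only the share over all probe sets tested was counted, 2.26%, where 5.23% fell. Of 12 round spermatid markers outside the 32 genes 11 were tested and 7 fell, with a median log2 fold change of -0.84 over those tested and -0.80 over all 12 without the filter. Their summed signal was 4075 to 4218 in KO and 5008 to 5242 in WT, a sum carried by Tex101, Pgam2 and Catsper2, which did not pass. Of the 11 round spermatid markers tested, 2 reached the filter with a KO mean below it, and 1 of the 7 falls was among them. Of 12 elongating spermatid markers 11 were tested and 7 fell, with medians of -1.44 over those tested and -1.35 over all 12, and sums of 440.1 to 586 against 860.1 to 1868. Of these 11, 5 reached the filter with a KO mean below it, and 3 of the 7 falls were among them. The transition protein and protamine genes of this list were dim in both groups. Tnp2 and Prm1 did not pass (log2 fold changes 0.015 and 0.029), nor did Tnp1 (log2 fold change -0.47, limma, adjusted p = 0.262). Prm2 was below the filter. The name of this list does not show that elongating spermatids were present at day 21, and their presence was not measured.

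Of 10 pachytene spermatocyte markers 4 fell (8262 to 9616 against 10090 to 10380), and of 10 meiotic prophase markers none passed by limma, with 2 at an unadjusted p under 0.05 (8612 to 9380 against 9235 to 9663). Spermatogonial markers rose in 4 of 9 cases (3932 to 3970.0 against 3261 to 3385), Sertoli markers in 2 of 9 tested (6763 to 7226 against 6073 to 6364) and the Leydig marker Star alone of 4 (1859 to 2999 against 1497 to 1858). By limma 0 of 7 macrophage markers passed, with 4 at an unadjusted p under 0.05 (1588 to 2462 against 1014 to 1505), and 0 of 5 myoid markers, with none at that level (1961 to 2266 against 1918 to 2038). Of 4 endothelial markers tested Tek rose (149 to 188 against 137 to 142), and of 2 fat markers Fabp4 rose (313 to 448 against 159 to 252).

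All 4 epididymal markers tested were called, in opposite directions: Adam7, Aqp9 and Rnase10 fell by 0.86, 0.32 and 0.44 on the log2 scale, and Defb15 rose by 1.22. Adam7 reached the filter with a KO mean of 16.7, below it. Lcn5 did not reach it, at 6.73, 4.70 and 6.26 in KO and at 28.9, 23.4 and 27.2 in WT. The sums over the 5 epididymal markers on the array, 616 to 754 in KO and 817 to 853 in WT, were mostly the signal of Aqp9. No marker of any list had a signal under 1 on all 6 arrays. By their medians, the round and elongating spermatid markers ranked the WT arrays as the dimmer content genes did. Their medians were -0.27 and -0.68 on WT replicate 2, and on WT replicate 3 they were 0.23 and 0.61. Single markers differed: of the 12 round spermatid markers WT replicate 2 was the lowest WT array in 8 and the highest in 3. These 3 were the bright Catsper2, Tex101 and Pgam2. Cell proportions were not measured, and their part in the falls of content genes was not tested.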

How the data were processed

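The values the authors deposited are linear signal intensities, 1 for each probe set of each array, made with MAS5 per the submitters' processing notes, which give no version. After trimming 2% from either end, these intensities averaged 150.0 on each of the 6 arrays. No detection call or scanner file was used, and the 3 arrays per group limit the precision. No source at hand names the genome build behind the probe sets.

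Of 45037 probe sets that are not controls, 34945 have 1 gene symbol, 932 several and 9160 none, and 34754 of the 34945 were matched to RefSeq symbols (GRCm38.p6) by Entrez identifier. Probe sets with names ending in _s_at or _x_at (Gopc and Golga3 among those used) can bind more than 1 transcript. Signals were transformed to log2(signal + 7), with the 25th percentile of the values as pseudocount, filtered at the 40th percentile of probe set means and fitted with limma 3.58.1 in R 4.3.3 (lmFit, eBayes, variance trend on intensity, two-sided, without covariates). The fit was tested on simulated data. The genes, lists and tests were chosen with earlier results of these data known. Named in full were the 8 content genes of lowest p, the called genes of the other roles and the 3 of highest p per role. The alternatives were other normalizations, pseudocounts, filters, variance models, array weights, a replicate block, the mean over probe sets and each array left out.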

Additional observations from a re-analysis of the deposited data

How the results depend on the processing

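Over the alternatives the fall of Nxf2 was -1.67 to -1.38 on the log2 scale and passed in each fit, and no called gene of the 32 changed sign. The sign of Smap2, which passed in no fit, turned with quantile normalization (-0.0058), median centring (-0.037), without KO replicate 3 (-0.024) and without WT replicate 1 (-0.0014), and was -0.024 to 0.034 with 1 array left out. Of the 32 genes 15 were called in all, 9 without the filter, 8 with the filter at the 60th percentile, 4 without the intensity trend, 23 with array weights and 0 to 13 with 1 array left out. Content genes called were 14, and 9, 7, 4 and 18 under the first 4 of these alternatives and 0 to 12 with 1 array left out. Traffic genes called were 0, with 2 under array weights. The content median moved to -0.61 and the difference of the medians to -0.45 with a pseudocount of 39, and to -0.35 and -0.17 with the filter at the 60th percentile. With 1 array left out the content median was -1.22 to -0.74, the traffic median -0.20 to -0.071 (the latter without KO replicate 3) and their difference -1.09 to -0.57. Over all probe sets 2024 were called, and 1005, 743 and 7217 without the filter, without the trend and with array weights, and 159 to 1534 with 1 array left out. Median centring changed the split of 1414 falls and 610 rises to 1382 and 247. Fewer genes or arrays entered some of these fits, and the cause of the shifts was not tested.

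With the replicate number as a block 4503 probe sets and 19 of the 32 genes were called, 16 content genes and 1 traffic gene among them. Deviations of same-numbered arrays correlated at 0.079, 0.46 and 0.27, and those of differently numbered arrays at -0.33 to 0.11. The labels state no pairing, so the main fit used none. Whether same-numbered samples belong together was not tested.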
